A study of Mus musculus with 12 samples.

Results

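Fabp4, Fabp5, Lpl, Cd36, Pparg, Cebpa, Cebpb, Adipoq, Plin2 and Zfp423 are 10 genes of the adipocyte lineage and of lipid uptake, and they were followed here through the stromal and vascular cells of the mouse mammary gland. They were chosen by symbol, are 10 of the 27998 genes of the deposited count matrices, and each matched 1 row in all 12 libraries. Each library was one group of 43-week-old female C57BL/6J mice, made by droplet-based single-cell RNA sequencing of the dissociated 4th mammary gland. Large cells, which include mature adipocytes, were lost in the dissociation, and the number of animals behind a library is not given in the sources used here.

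All groups but Intact had received 4-vinylcyclohexene diepoxide (VCD, 160 mg/kg/day for 15 days), which destroys ovarian follicles and so removes ovarian hormones. VCD_Vehicle received no hormone, VCD_E2 received estradiol (E2, 1 µg per animal and day for 1 week) and VCD_E2_P4 received E2 with progesterone (P4, 1 mg per animal and day). VCD_Low_PBDE, VCD_Low_E2 and VCD_Low_E2_P4 were the same hormone states in mice fed a low dose of polybrominated diphenyl ethers (PBDEs, flame retardants that accumulate in fat) for 20 weeks. That dose was 0.05, 0.0028 and 0.0063 mg/kg/day of PBDE-47, PBDE-100 and PBDE-153. VCD_High_PBDE, VCD_High_PBDE_E2 and VCD_High_PBDE_E2_P4 were fed a high dose for 1 week, so that dose and duration cannot be told apart. The high dose was 1, 0.056 and 0.126 mg/kg/day of the same compounds. Low and high name the daily dose and not the total taken in. Groups without PBDE ate matched food with the solvent. The remaining libraries were Intact, VCD_Vehicle_NormEnv (vehicle animals with possible PBDE exposure from cage plastic) and VCD_E2_ICI (E2 with a single 5 mg dose of ICI, an antagonist that degrades the estrogen receptor).

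The proteins form a short route for fatty acids into a cell and the program that installs it. LPL (lipoprotein lipase) releases fatty acids from circulating lipoproteins, CD36 carries them across the membrane, FABP4 and FABP5 bind them in the cytosol, and PLIN2 coats the lipid droplets in which they are stored. C/EBPβ acts early in adipocyte differentiation, PPARγ and C/EBPα then drive it together, ZFP423 marks committed preadipocytes, and adiponectin (Adipoq) is secreted by mature adipocytes. In the mammary gland these genes are also read outside adipocytes, Fabp4 and Cd36 in capillary endothelium and Cd36, Lpl and Plin2 in macrophages.

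The promoters of Cd36 and Plin2 are shown because both genes were higher with E2 in several fibroblast subsets below. Of the 10 genes, 7 had a promoter in the RefSeq table on GRCm38.p6, with 10 promoters in all. The sequences are the 250 bases before the start, 5′ to 3′ on the gene's strand, and capitals mark AGGTCA, the hexamer that nuclear receptors bind, here on the opposite strand as TGACCT. The Cd36 promoter lies at chr5:17835897-17836146, minus strand, inside the annotated span of the gene, and that of Plin2 at chr4:86670060-86670309, minus strand.
Cd36: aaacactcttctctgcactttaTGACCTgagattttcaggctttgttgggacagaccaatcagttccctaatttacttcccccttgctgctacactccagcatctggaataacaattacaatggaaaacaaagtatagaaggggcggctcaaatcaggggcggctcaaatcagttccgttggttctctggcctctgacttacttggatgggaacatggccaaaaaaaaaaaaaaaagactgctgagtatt
Plin2: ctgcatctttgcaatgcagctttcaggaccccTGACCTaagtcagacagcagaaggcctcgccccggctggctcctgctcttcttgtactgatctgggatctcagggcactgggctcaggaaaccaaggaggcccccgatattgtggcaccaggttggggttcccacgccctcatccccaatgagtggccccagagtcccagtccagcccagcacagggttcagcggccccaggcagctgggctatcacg
AGGTCA, searched on both strands, was found in 5 of the 10 promoters of these genes and in 14% of all 32851 promoters in the table. The letters of an estrogen response element, GGTCA followed after 3 bases by TGACC, were in 0 of the 10 and in 0.0639% of all. The direct repeat read by PPARγ, AGGTCA repeated after 1 base, was in 0 of the 10 and in 0.0335% of all, and TTGCNNAA, a C/EBP motif, was in 2 of the 10 and in 9.56% of all. A match describes letters and not a bound site.

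By GENCODE M21 on GRCm38, Fabp4 (ENSMUSG00000062515) lies at chr3:10204088-10208576, close to Fabp5 (ENSMUSG00000027533) at chr3:10012548-10016607. Cd36 (ENSMUSG00000002944) lies at chr5:17781690-17888801, Plin2 (ENSMUSG00000028494) at chr4:86648386-86670060, Lpl (ENSMUSG00000015568) at chr8:68880491-68907448 and Pparg (ENSMUSG00000000440) at chr6:115360951-115490399.

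The libraries held 58620 barcodes, between 2497 and 10006 in a library, with 41737881 to 109224969 unique molecular identifiers (UMIs, counted molecules) each, and 46257 cells passed the filters. VCD_Low_E2_P4 stood apart, with the most barcodes and the lowest median depth of 11843 UMIs in a passing cell, and 740 barcode sequences were found in more than 1 library. Of the passing cells, 29024 were fibroblasts by the absence of Epcam, Krt14, Ptprc, Cd52, Pecam1 and Cspg4 and the presence of Col1a1 and Pdgfra. By marker scores they fell into 10341 Fib_0-like (Dpp4, Pi16), 7001 Fib_1-like (Cxcl14, Smoc2, Col15a1), 3196 Fib_2-like (Tnc, Scg3, Penk) and 3180 Fib_3-like cells (Gdf10, F3, Gas6), with 5306 left unassigned, and none of the 10 genes took part in any gate. Fib_1-like cells were led by Fabp4 itself by fold over the other subsets, and none of the 6 genes of their gate was among their 10 leading genes, so the name rests on the score alone. Further gates found 155 endothelial cells, 974 macrophages, 2193 lymphocytes and 167 luminal cells. Levels are given as CPM, the UMIs of a gene per 1000000 UMIs summed over the cells of a population in a library, and they compare a gene with itself only.

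By the median, Fib_1-like cells held the highest level of Fabp4, Fabp5, Lpl, Cd36, Pparg, Cebpa and Plin2 among the 4 subsets. The median over the 12 libraries of Fabp4 was 2436 CPM for Fib_1-like cells, then 299 for the Fib_2-like, 161 for the Fib_3-like and 22.1 for the Fib_0-like cells, and this order held in 12 of 12 libraries at each step. Fib_1-like cells gave 70.9% of all Fabp4 UMIs of the fibroblasts and 23.0% of their UMIs in all. Across libraries the Fabp4 level in Fib_1-like cells ranged from 807 CPM in VCD_Vehicle_NormEnv to 5242 CPM in VCD_High_PBDE_E2. These orders between populations are described without a test. The study that reported these data describes its Fib_1 cluster by higher Fabp4 and Lpl, and the Fib_1-like gate was made to find that cluster. For these genes the order was thus in part fixed in advance.

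Lpl kept the same order with a narrower range. In Fib_1-like cells it lay between 2312 and 3752 CPM with a median of 3060, above every library of the Fib_2-like (853 to 1639 CPM), the Fib_3-like (608 to 1075 CPM) and Fib_0-like cells (172 to 366 CPM). Pparg was likewise separate, at 54.0 to 74.6 CPM in Fib_1-like cells against a highest value of 34.0 CPM in Fib_2-like, 26.2 CPM in Fib_0-like and 24.6 CPM in Fib_3-like cells. The Pparg level of Fib_1-like cells varied 1.38-fold over the 12 libraries, whereas Cd36 in the same cells varied 27.7-fold, from 10.5 CPM in VCD_Vehicle to 292 CPM in VCD_High_PBDE_E2_P4.

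Cd36 had a median of 77.3 CPM in Fib_1-like cells, and 9.29 CPM in Fib_3-like, 8.12 CPM in Fib_2-like and 1.88 CPM in Fib_0-like cells. Fib_3-like and Fib_2-like cells were not ordered for Cd36, since the former was higher in only 4 of 12 libraries. Plin2 fell from 496 CPM in Fib_1-like to 257 CPM in Fib_2-like, each in 12 of 12 libraries, and its medians of 82.8 CPM in Fib_3-like and 67.6 CPM in Fib_0-like cells changed places in 6 of 12. Fabp5 stepped down from 42.6 CPM (Fib_1-like) over 23.5 CPM (Fib_2-like) and 18.4 CPM (Fib_3-like) to 10.1 CPM (Fib_0-like), with Fib_1-like above Fib_2-like in 10 of 12 libraries. Cebpa, at 39.8 CPM in Fib_1-like and 33.0 CPM in Fib_2-like cells, was higher in the former in 10 of 12 libraries, followed by 23.9 CPM in Fib_3-like and 12.6 CPM in Fib_0-like cells.

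Cebpb and Zfp423 had other orders. Cebpb differed little, with medians of 1182 CPM for Fib_3-like, 1097 CPM for Fib_0-like, 1075 CPM for Fib_2-like and 970 CPM for Fib_1-like cells, all with overlapping ranges. Zfp423 was highest in Fib_0-like cells, at 15.1 CPM against 9.31 CPM (Fib_1-like), 8.45 CPM (Fib_3-like) and 7.13 CPM (Fib_2-like), and Fib_0-like exceeded Fib_1-like cells in 12 of 12 libraries. The order of the last 3 changed between libraries, with 8 of 12 following each step.

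**Figure D1:**
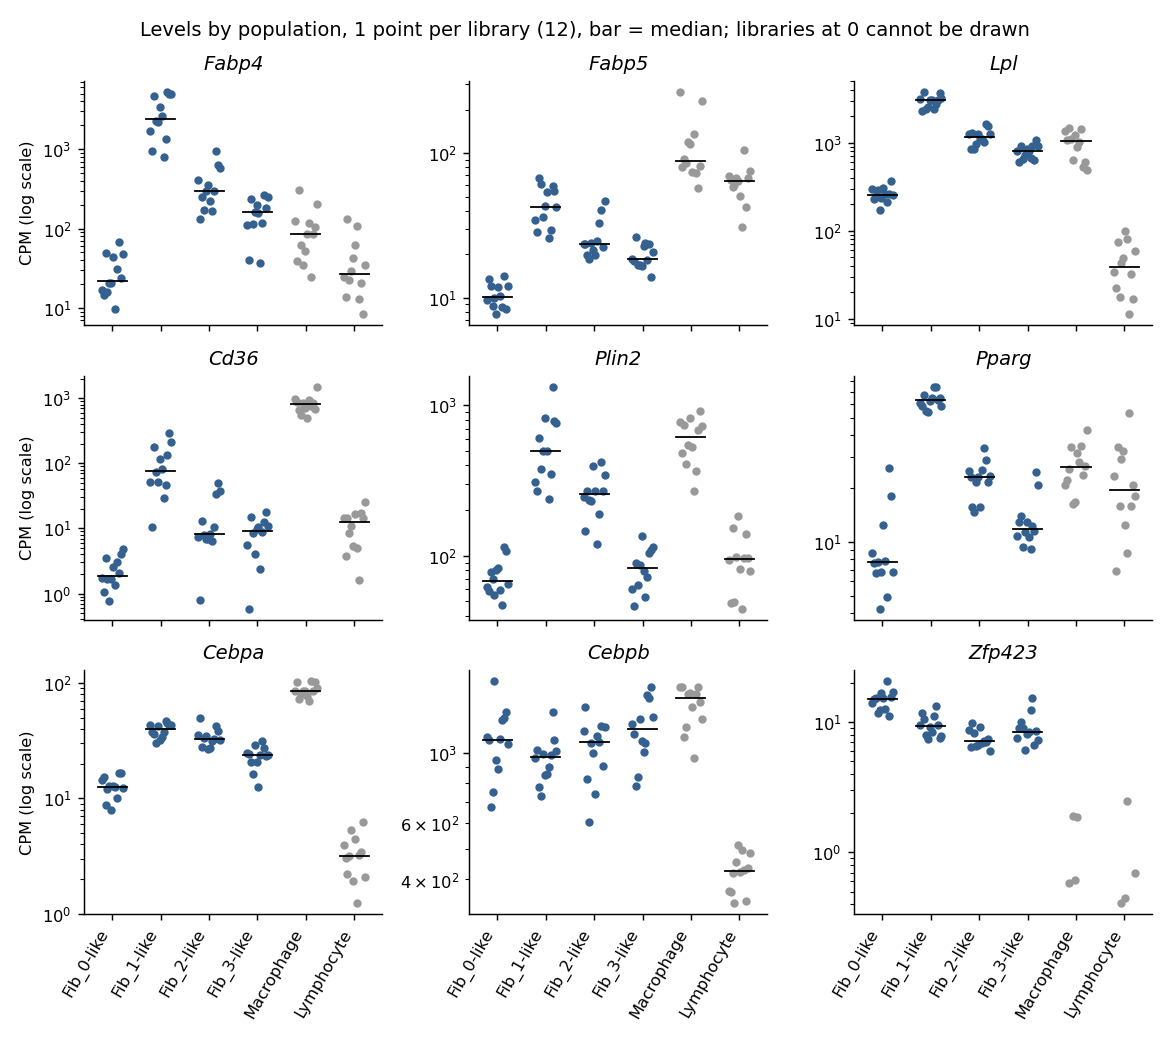
CPM on a log axis of 9 of the 10 genes in the 4 fibroblast subsets (blue), macrophages and lymphocytes (grey), with 1 point per library and the median as a bar. Fabp4, Lpl and Pparg are highest in Fib_1-like cells, Cebpb is level over the subsets, and libraries without a UMI, as for Zfp423 in most macrophage and lymphocyte sums, cannot be drawn on this axis.

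Markers of mature adipocytes were close to absent. Adipoq had 17 UMIs in all fibroblasts, 9 of them in Fib_1-like cells, and 6 in macrophages, and it was too low to be tested in any subset. Of the 9 mature adipocyte markers (Adipoq, Plin1, Cidec, Lep, Retn, Adrb3, Slc2a4, Acvr1c, Aqp7), between 1 and 7 had a UMI in a Fib_1-like sum, and together they reached 0.0702 to 2.33 CPM there. Lep had 0 UMIs in all 4 subsets. The fibroblast sums thus held few or no UMIs of the defining adipocyte markers.

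Single cells repeated the order. After thinning each cell to 5000 UMIs, 77.0% of Fib_1-like cells held a Fabp4 UMI (95% interval 76.0 to 78.0%, exact binomial, counting error only), against 36.9% of the Fib_2-like, 16.6% of the Fib_3-like and 7.12% of the Fib_0-like cells. The unthinned shares were 83.7%, 50.9%, 28.9% and 22.2%. Lymphocytes, which should lack Fabp4, held it in 10.5% of thinned and 15.8% of unthinned cells at a median of 5549 UMIs (19009 in Fib_0-like cells), so the thinned share in Fib_0-like cells was below that of a cell type that should lack the gene. At this depth 272 of the 7001 Fib_1-like, 316 of the 10341 Fib_0-like and 927 of the 2193 lymphocytes were too shallow and were left out.

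Thinned shares with a Cd36 UMI were 18.8% in Fib_1-like cells and 3.22%, 2.58% and 0.838% in Fib_2-, Fib_3- and Fib_0-like cells, against 2.61% in lymphocytes (1.80 to 3.64%), so that the share was above that of lymphocytes in Fib_1-like cells, within their interval in Fib_2- and Fib_3-like cells and below it in Fib_0-like cells. For Plin2 they were 73.0% and 57.5% in Fib_1- and Fib_2-like cells, and 26.7% and 28.1% in Fib_3- and Fib_0-like cells, the latter pair below the 31.5% of lymphocytes. Pparg was found in 24.6% of Fib_1-like cells, and in 9.88% of Fib_2-like and 3.98% of Fib_0-like cells against 10.6% of lymphocytes. The share for Fabp5 was 14.3% in Fib_1-like cells and 22.3% in lymphocytes, whose median level of 64.4 CPM was also the higher. Lpl was found in 99.0% of Fib_1-like and 57.4% of Fib_0-like cells, against 9.72% of lymphocytes, and was above their share in all 4 subsets. A share at or below that of lymphocytes does not show that a gene is absent. Lymphocytes were shallower (median 5549 UMIs, against 19009 in Fib_0-like cells), and thinning does not even out a part of free RNA that depends on depth. They may also hold some of these genes, with Pparg at up to 53.0 CPM (VCD_High_PBDE), above every Fib_0- and Fib_3-like sum.

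Endothelial cells were few, and 3 libraries held at least 10 of them. By fold over the other populations they were led by Ccl21a (18936 CPM, reads of near-identical copies may be included) and Mmrn1 (3035 CPM), with Reln and Flt4 (993 and 722 CPM) also among the 10 leading genes, all known from lymphatic endothelium, beside Cldn5, Egfl7, Flt1 and Pecam1. Fabp4 stood there at 2373 CPM in VCD_Vehicle_NormEnv (21 cells), 2625 CPM in VCD_Low_E2 (20 cells) and 6138 CPM in VCD_Low_E2_P4 (74 cells), the last above and the others within the range of Fib_1-like cells. Cd36 stood at 553, 421 and 535 CPM in the same libraries, above every fibroblast sum, and Lpl at 43.1, 43.9 and 312 CPM, below its Fib_1-like range. In VCD_Low_E2_P4 the luminal cells also held Fabp4 at 233 CPM and Lpl at 402 CPM. No other luminal sum exceeded 28.5 CPM for Fabp4, nor 27.4 CPM for Lpl on more than 1 UMI. Whether RNA of other cells entered the endothelial sum of this library was not tested. No hormone or PBDE comparison could be fitted for endothelial cells, since only 2 of the 9 libraries of the full layout reached 10 cells. In macrophages Cd36 had a median of 804 CPM, Lpl of 1042 CPM and Plin2 of 619 CPM.

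Over 99 sums of 9 populations, the gene most like Fabp4 by Pearson correlation of log2(CPM + 1) was 5430416O09Rik (r = 0.84), followed by Hrct1 and Epas1 (both r = 0.83). For Lpl they were Nav1, Enpep (both r = 0.89) and Vcam1 (r = 0.88), for Cd36 Plxnd1 (r = 0.88), Chp2 (r = 0.83) and Npl (r = 0.80), and for Zfp423 Sptbn1, Timp3 (both r = 0.94) and Tshz2 (r = 0.93). Pparg was most like Dusp1 (r = 0.77), Zbtb46 (r = 0.75) and Sept11 (r = 0.74), Plin2 most like Slc37a2, Lamtor3 (both r = 0.78) and Cmklr1 (r = 0.76), and Fabp5 most like Sfpq, Plk3 and Brd2 (all r = 0.72). Cebpa followed Ctsb (r = 0.86), Asah1 (r = 0.84) and Lamtor3 (r = 0.83), and Cebpb followed Fbxo30, Ccnl1 (both r = 0.83) and Dse (r = 0.82), whereas Adipoq reached only 0.60 with Siglec1, 0.58 with Slc13a3 and 0.58 with Cd209b on a few UMIs. These correlations describe sums that share libraries and populations. A sum entered with at least 100000 UMIs, whatever its number of cells. The 6 endothelial sums thus include those of VCD_High_PBDE_E2 (2 cells), Intact (8 cells) and VCD_E2 (9 cells).

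Hormone and PBDE effects were tested in the 9 VCD libraries that cross no hormone, E2 and E2 + P4 with no, low and high PBDE. Each effect is a log2 fold change with its standard error (SE) from edgeR's quasi-likelihood test on the summed counts of a subset, adjusted by Benjamini-Hochberg over all genes, and a gene is called at an adjusted p below 0.05. With 1 library per group, the error is the spread of libraries around additive hormone and PBDE effects, and part of it may be technical. In a sum over cells, a change in the makeup of a subset and a change within its cells cannot be told apart. The E2 effect sets the mean of the E2 and E2 + P4 libraries against the libraries without hormone.

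With E2, 1 to 4 of the genes of lipid uptake and storage were called higher in a subset, in Fib_3-like cells Cd36 alone, and no transcription factor was called higher in any. Of 36 pairs of gene and subset tested, 11 were called for E2, 9 higher and 2 lower, and Adipoq was not tested. In Fib_1-like cells 4 of 9 tested genes were higher (Fabp4, Fabp5, Cd36 and Plin2), where 9.56% of all genes were called, 5.68% higher and 3.88% lower. In Fib_0-like cells Lpl and Plin2 were higher, 2 of 9, with 11% of all genes called, 5.97% higher and 5% lower. In Fib_2-like cells Cd36 and Plin2 were higher and Pparg and Cebpb lower, 4 of 9, with 31.6% of all genes called, 16% higher and 15.6% lower, so that share was near the background. In Fib_3-like cells Cd36 was higher, 1 of 9, with 3.28% of all genes called, 2.31% higher and 0.972% lower. The median log2 fold change of the 9 tested genes was 0.44, 0.28, 0.21 and 0.20 from Fib_0- to Fib_3-like cells, against -0.01 over all genes in each.

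**Figure D2:**
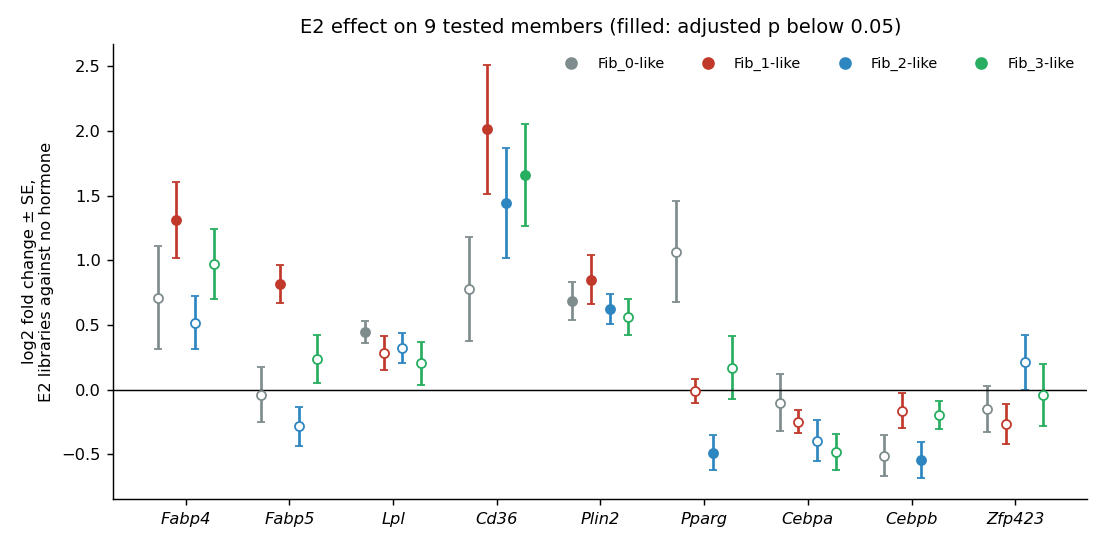
Log2 fold change with E2 (y axis, bars are 1 SE) of the 9 tested genes (x axis) in the 4 fibroblast subsets, in the fit over 9 libraries. Filled points passed an adjusted p below 0.05 and open points did not. Fabp4, Lpl, Cd36 and Plin2 lie above 0 in all 4 subsets, and Cebpa and Cebpb below it in all 4.

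Fabp4 in Fib_1-like cells stood at 953 CPM in VCD_Vehicle, 2202 CPM in VCD_Low_PBDE and 1336 CPM in VCD_High_PBDE. In the 6 E2 libraries the lowest was 2263 CPM, the median 4065 CPM and the highest 5242 CPM. All E2 libraries lay above all libraries without hormone, although VCD_E2_P4 (2263 CPM) and VCD_Low_PBDE (2202 CPM) were almost level. This gave a log2 fold change of 1.31 ± 0.29 (SE, 9 libraries, edgeR adjusted p = 0.0243). Within PBDE levels the mean of the E2 libraries was 3.67 times the library without hormone where no PBDE was given, 1.36 times at low PBDE and 3.83 times at high PBDE. At low PBDE the library without hormone and the E2 libraries also have different endings of the deposited file names, so hormone and ending cannot be told apart within that level, while each of the other levels has 1 ending. The call was lost without VCD_Vehicle (adjusted p = 0.118), VCD_E2_P4 (0.0525) or VCD_High_PBDE (0.0985).

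Cd36 in Fib_1-like cells stood at 10.5 CPM in VCD_Vehicle, 51.6 CPM in VCD_Low_PBDE and 46.8 CPM in VCD_High_PBDE, and in the E2 libraries at 73.2 CPM or more, with a median of 123 CPM and a highest value of 292 CPM. The groups did not overlap. The log2 fold change of 2.01 ± 0.50 (adjusted p = 0.037) was the largest among the 9 genes in this subset, and it rests in part on the low value of VCD_Vehicle. Without that library it was 1.46 (adjusted p = 0.123), and the call was also lost without VCD_E2_P4 (0.0717), VCD_High_PBDE (0.127) or VCD_High_PBDE_E2_P4 (0.0624).

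Fabp5 in Fib_1-like cells was even without hormone, at 28.5 CPM in VCD_Vehicle, 35.9 CPM in VCD_Low_PBDE and 29.2 CPM in VCD_High_PBDE, and reached 43.2 to 67.3 CPM with a median of 57.2 CPM in the E2 libraries. The groups did not overlap, and the log2 fold change was 0.82 ± 0.15 (adjusted p = 0.00962). Of the 9 leave-one-out fits, the call was lost in that without VCD_Vehicle (adjusted p = 0.0594). Fabp5 was not called with E2 in the other subsets, where its log2 fold change was -0.04 (Fib_0-like), -0.28 (Fib_2-like) and 0.24 (Fib_3-like). The E2 effect on Fabp5 in Fib_1-like cells exceeded its mean in the other 3 subsets by 0.81 ± 0.17 on the log2 scale (adjusted p = 0.00997, with 2.03% of all genes called in this test), which was lost without VCD_Vehicle (0.0705) or VCD_High_PBDE (0.0524).

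Plin2 in Fib_1-like cells stood at 270 CPM in VCD_Vehicle, 497 CPM in VCD_Low_PBDE and 349 CPM in VCD_High_PBDE, and at 379 to 1332 CPM with a median of 699 CPM in the E2 libraries. VCD_E2_P4 (379 CPM) and VCD_Low_E2_P4 (496 CPM) lay within the range of the libraries without hormone. Its log2 fold change was 0.85 ± 0.19 (adjusted p = 0.0237). It was lost without VCD_Vehicle (0.0844) or VCD_E2_P4 (0.0666), and was 0.54 without VCD_High_PBDE (adjusted p = 0.0369).

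**Figure D3:**
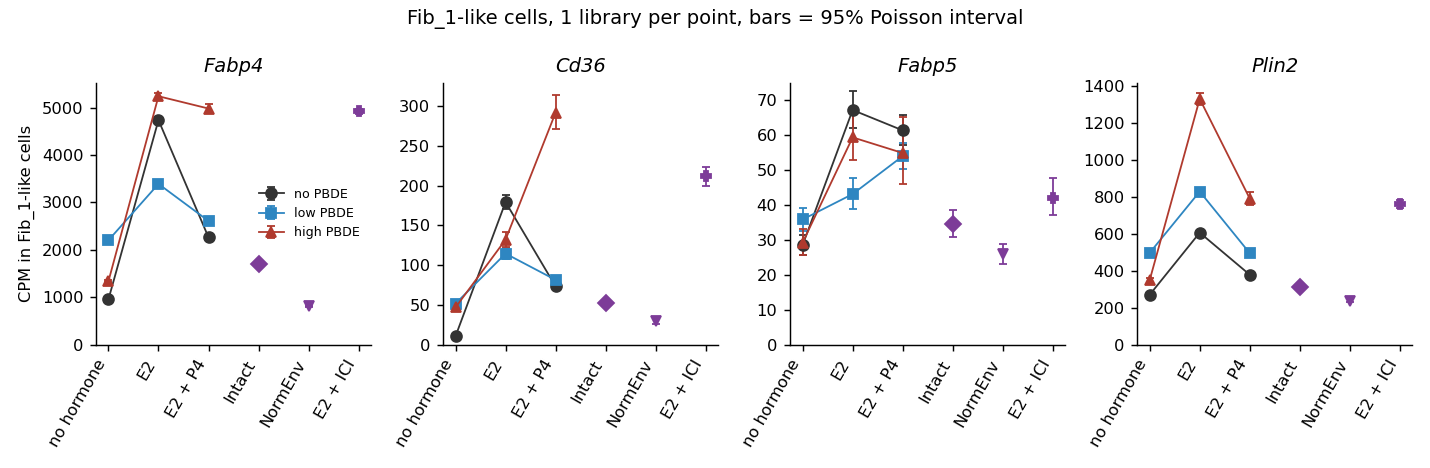
CPM (y axis from 0) of Fabp4, Cd36, Fabp5 and Plin2 in Fib_1-like cells, with 1 library per point and 95% Poisson intervals as bars. Lines join the hormone states at no, low and high PBDE, and purple points are Intact, VCD_Vehicle_NormEnv and VCD_E2_ICI. Each gene is higher with E2 than without hormone at each PBDE level, and E2 + P4 lies below E2 for Plin2 at all 3 levels.

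The 4 calls in Fib_1-like cells were kept when the ending of the deposited file names was added as a term. The names have 2 endings, called 1 and 2 here, whose meaning is not given in the sources used here, and the calls then stood with log2 fold changes of 1.86 for Fabp4, 2.78 for Cd36, 1.06 for Fabp5 and 1.16 for Plin2. At low PBDE hormone and ending change together, so with this term the E2 effect rests on the levels without PBDE and at high PBDE. The kept calls therefore do not test the ending at low PBDE. With E2 alone, leaving out the E2 + P4 libraries, none of the 4 was called, and the log2 fold changes were 1.62 for Fabp4 (adjusted p = 0.112), 2.12 for Cd36 (0.179), 0.82 for Fabp5 (0.164) and 1.25 for Plin2 (0.0958). That fit has fewer libraries and so less power. A call lost in it, here or below, does not show that E2 alone had no effect. The summed 9 mature adipocyte markers stood in the same cells at 0.0702 to 0.589 CPM without hormone and at 0.762 to 2.28 CPM with E2. These values rest on few UMIs. Over the 12 libraries Slc2a4 (45 UMIs) and Aqp7 (29 UMIs) had the most, against 9 for Adipoq and 5 for Cidec, with Lep and Adrb3 at 0. The 10 endothelial markers, of which the fibroblast gate shuts out Pecam1, stood at 25.9 to 34.9 CPM and 32.1 to 51.6 CPM, with overlap. The 8 macrophage markers overlapped too, at 6.32 to 24.4 CPM and 6.25 to 20.7 CPM. The part of these cells in the results was not tested. Unassigned fibroblasts, which held 21.3% of the Fabp4 UMIs, made up 13.1 to 15.8% of the fibroblasts without hormone and 17.9 to 26.6% with E2. Fib_1-like cells made up 34.9% of the fibroblasts in VCD_Vehicle, 25.6% in VCD_E2 and 21.5% in VCD_E2_P4, and 24.4%, 18.8% and 23.8% in the same order at low PBDE and 26.8%, 17.8% and 8.69% at high PBDE, so their share was lower with E2 at each level, and its part in the results was not tested. When all gated fibroblasts were summed regardless of subset, an alternative chosen after seeing the data, E2 gave log2 fold changes of 0.89 ± 0.24 for Fabp4 (adjusted p = 0.042), 1.50 ± 0.36 for Cd36 (adjusted p = 0.0293) and 0.58 ± 0.16 for Plin2 (adjusted p = 0.0433), 3 of 9 genes, with 19.4% of all genes called. Fabp5, at 0.48 ± 0.16 (adjusted p = 0.0778), and Lpl, at 0.08 ± 0.11 (adjusted p = 0.618), were not called in those sums. In those sums 0 of 9 genes were called for P4, high PBDE or low PBDE, where edgeR called 0.0209%, 0.411% and 0% of all genes.

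The difference of the E2 effect between a subset and the mean of the other 3 was called for 2 of 36 pairs, Fabp5 in Fib_1-like and Pparg in Fib_0-like cells, with 17.2%, 2.03%, 27.3% and 4.56% of all genes called from Fib_0- to Fib_3-like cells. The E2 effect on Fabp4 in Fib_1-like cells did not differ from its mean in the other subsets by a called amount (0.55 ± 0.33 on the log2 scale, adjusted p = 0.51), nor did that on Cd36 (0.46 ± 0.38, adjusted p = 0.696) or Plin2 (0.25 ± 0.16, adjusted p = 0.571). Fabp4 was not called in the other subsets, with log2 fold changes of 0.97 ± 0.27 for Fib_3-like (adjusted p = 0.0839), 0.71 ± 0.40 for Fib_0-like (0.276) and 0.52 ± 0.21 for Fib_2-like cells (0.0766). The call for Fib_2-like cells depended on the setting. It was made under 6 of the 11 other settings, DESeq2 included (0.52, 0.036), and without VCD_Low_PBDE (0.92, 0.00386) or VCD_Low_E2_P4 (0.65, 0.0476), while without VCD_High_PBDE the fold was 0.18 (0.457).

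Within Fib_1-like cells the spread between cells was wide in every library. The median cell held 5.62 Fabp4 UMIs per 10000 in VCD_Vehicle and 36.4 in VCD_E2, and the 90th percentiles were 23.3 and 118. The medians were nearer at low PBDE, 13.9 in VCD_Low_PBDE and 22.7 in VCD_Low_E2, and were 9.17 in VCD_High_PBDE and 41.3 in VCD_High_PBDE_E2. The share of cells without a Fabp4 UMI had no common direction, at 19.1% in VCD_Vehicle and 13.7% in VCD_E2, 14.4% in VCD_Low_PBDE and 18.8% in VCD_Low_E2, and 14.4% in VCD_High_PBDE and 11.4% in VCD_High_PBDE_E2. For Plin2 the medians were 1.79 and 4.49 UMIs per 10000, and the 90th percentile was highest in VCD_High_PBDE_E2, at 33.1 against 6.86 in VCD_High_PBDE. Cd36 was at 0 in 92.8% of the Fib_1-like cells of VCD_Vehicle and in 47.0% of those of VCD_E2, in 80.0% and 57.6% for VCD_Low_PBDE and VCD_Low_E2, and in 78.0% and 55.7% for VCD_High_PBDE and VCD_High_PBDE_E2. These shares were not thinned to a common depth.

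**Figure D4:**
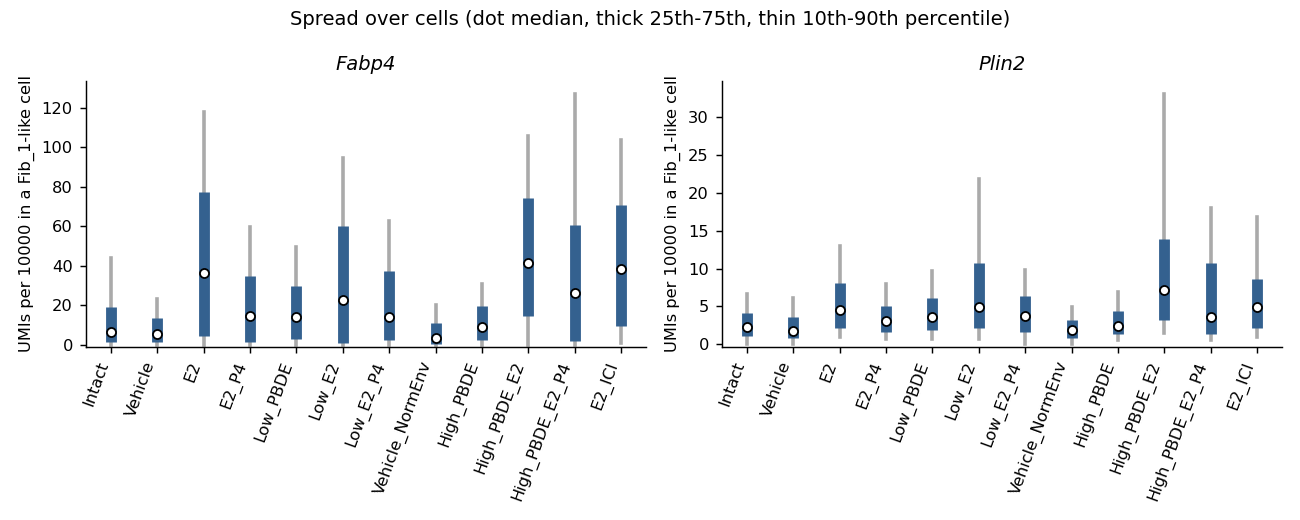
UMIs of Fabp4 (left) and Plin2 (right) per 10000 UMIs in single Fib_1-like cells of the 12 libraries (x axis), as median (dot), 25th to 75th percentile (thick bar) and 10th to 90th percentile (thin bar). The Fabp4 medians run from 3.59 in VCD_Vehicle_NormEnv to 41.3 in VCD_High_PBDE_E2, and the thin bars are long wherever the median is high.

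Plin2 rose in 3 subsets and was the steadiest of the E2 results in Fib_2-like cells. There it stood at 147 CPM in VCD_Vehicle, 230 CPM in VCD_Low_PBDE and 190 CPM in VCD_High_PBDE, and at 234 to 423 CPM with a median of 271 CPM in the E2 libraries, without overlap. It had a log2 fold change of 0.62 ± 0.11 (adjusted p = 0.00175) and stayed called without each of the 9 libraries in turn and under the 11 other settings tried. Fib_2-like cells made up 18.8% of the fibroblasts in VCD_Vehicle, 7.46% in VCD_E2 and 6.09% in VCD_E2_P4. In the same order their share was 12.3%, 9.25% and 5.23% at low PBDE, and 6.39%, 16.2% and 10.2% at high PBDE. It was thus lower with E2 without PBDE and at low PBDE and higher at high PBDE, and its part in the results was not tested. The 6 pericyte markers, of which the fibroblast gate shuts out Cspg4, were lower with E2 in these cells, at 13.1 to 26.8 CPM against 45.1 to 54.7 CPM without hormone, and their part in the results was not tested. In Fib_0-like cells Plin2 stood at 58.7, 55.2 and 46.7 CPM without hormone and at 70.1 to 115 CPM with E2 (log2 fold change 0.69 ± 0.15, adjusted p = 0.0284). That call was lost without VCD_E2 (0.0529), VCD_Low_PBDE (0.0968), VCD_Low_E2 (0.058), VCD_Low_E2_P4 (0.0712) or VCD_High_PBDE_E2_P4 (0.0644), was lost with the file-name ending as a term (0.0941) and with E2 alone (0.136), and its fold fell to 0.43 without VCD_High_PBDE (adjusted p = 0.0261). The thinned share of Fib_0-like cells with a Plin2 UMI was below that of lymphocytes, as given above. In lymphocytes Plin2 stood at 48.8, 97.7 and 96.4 CPM without hormone at no, low and high PBDE. It stood at 153, 184 and 139 CPM with E2 and at 49.2, 81.7 and 96.1 CPM with E2 + P4. The part of free RNA in the Fib_0-like result was not tested. In Fib_3-like cells Plin2 missed the threshold at 0.56 ± 0.14 (adjusted p = 0.0539).

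Lpl was called in Fib_0-like cells, where its level is lowest. It stood at 232 CPM in VCD_Vehicle, 172 CPM in VCD_Low_PBDE and 213 CPM in VCD_High_PBDE, and at 232 to 366 CPM with a median of 273 CPM in the E2 libraries. The gap between the groups was under 1 CPM, between VCD_Vehicle and VCD_Low_E2. Its log2 fold change was 0.44 ± 0.08 (adjusted p = 0.0189), and the call was lost without VCD_Low_PBDE (0.121), VCD_Low_E2 (0.0542), VCD_Low_E2_P4 (0.0553), VCD_High_PBDE (0.0715) or VCD_High_PBDE_E2_P4 (0.0523), with the file-name ending as a term (0.115), and with E2 alone (0.229). In Fib_1-like cells Lpl had 0.28 ± 0.13 (adjusted p = 0.198).

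Cd36 was low in Fib_2-like cells, at 0.808 CPM in VCD_Vehicle, 6.78 CPM in VCD_Low_PBDE and 10.5 CPM in VCD_High_PBDE, and at 6.94 to 49.3 CPM in the E2 libraries. The groups overlapped, and the thinned share of cells with a Cd36 UMI, pooled over the 12 libraries, was within the lymphocyte interval given above. By library it was above that interval in VCD_High_PBDE_E2 (7.59%, 4.82 to 11.3%) and VCD_High_PBDE_E2_P4 (8.21%, 4.17 to 14.2%). The intervals of the other libraries did not lie above it. The Cd36 log2 fold change of 1.44 ± 0.43 (adjusted p = 0.0241) was lost without VCD_Vehicle (0.96, adjusted p = 0.108) or VCD_High_PBDE (1.18, 0.147) and was 2.41 without VCD_Low_PBDE (adjusted p = 0.00194). It was also not called with DESeq2 (0.0755), with a lead of 0.6 between subset scores (0.106) or with E2 alone (0.0684). In Fib_3-like cells the pooled share was likewise within that interval, and by library only VCD_High_PBDE_E2_P4 lay above it (7.33%, 3.72 to 12.7%). Cd36 stood there at 0.585, 4.04 and 8.85 CPM without hormone and at 8.38 to 17.9 CPM with E2, with a log2 fold change of 1.66 ± 0.39 (adjusted p = 0.0478). That call held without VCD_High_PBDE_E2 (0.0268) and was lost without VCD_Vehicle (0.127), VCD_E2 (0.0638), VCD_E2_P4 (0.0784), VCD_Low_PBDE (0.196), VCD_Low_E2 (0.0625), VCD_Low_E2_P4 (0.103), VCD_High_PBDE (0.055) or VCD_High_PBDE_E2_P4 (0.102), and under 6 of the 11 other settings. The summed 8 macrophage markers in Fib_3-like cells ran from 4.10 to 8.69 CPM without hormone and from 11.1 to 101.9 CPM with E2, with the highest value in VCD_High_PBDE_E2, and macrophages hold Cd36. Their part in the result was not tested.

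Among the transcription factors, both calls were lower and both were in Fib_2-like cells. In that subset 31.6% of all genes were called, 15.6% lower, so nothing is read from the number of these calls. Pparg in Fib_2-like cells stood at 23.2 CPM in VCD_Vehicle, 21.9 CPM in VCD_Low_PBDE and 34.0 CPM in VCD_High_PBDE, and at 14.7 to 28.8 CPM with a median of 18.8 CPM in the E2 libraries, with overlap. Its log2 fold change of -0.49 ± 0.14 (adjusted p = 0.0185) was lost without VCD_Vehicle (0.142), VCD_E2 (0.0516) or VCD_High_PBDE (0.0561), with DESeq2 (0.105), and with every fibroblast given to its best subset (-0.15, 0.436) or E2 alone (-0.29, 0.307). The thinned share of Fib_2-like cells with a Pparg UMI was within the interval of lymphocytes (8.94 to 12.4%). In Fib_1-like cells, where Pparg is highest, it was -0.01 ± 0.09 (adjusted p = 0.966).

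Cebpb in Fib_2-like cells stood at 1388 CPM in VCD_Vehicle, 1074 CPM in VCD_Low_PBDE and 1077 CPM in VCD_High_PBDE, and at 607 to 1214 CPM with a median of 869 CPM in the E2 libraries. VCD_High_PBDE_E2 alone of the 6 lay above a library without hormone. The fold change on the log2 scale was -0.54 ± 0.14 (adjusted p = 0.013), and without VCD_Vehicle it was -0.27 (0.146), and with E2 alone -0.30 (0.277). Cebpa lay below 0 in all 4 subsets without a call, from -0.10 in Fib_0-like to -0.48 in Fib_3-like cells (adjusted p = 0.0898), and Zfp423 was between -0.26 and 0.21 (adjusted p of 0.303 or more).

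Pparg in Fib_0-like cells had an E2 effect of 1.07 ± 0.39, which was not called within that subset (adjusted p = 0.116). Its thinned share of cells there was below that of lymphocytes. Pparg stood at 7.66 CPM in VCD_Vehicle, 4.22 CPM in VCD_Low_PBDE and 4.88 CPM in VCD_High_PBDE. With E2 it stood at 6.68 CPM in VCD_E2, 7.76 CPM in VCD_E2_P4, 6.80 CPM in VCD_Low_E2, 12.5 CPM in VCD_Low_E2_P4, 26.2 CPM in VCD_High_PBDE_E2 and 18.1 CPM in VCD_High_PBDE_E2_P4. Without VCD_Vehicle the effect was 1.62 and called (0.0361), with DESeq2 it was called at 1.00 (0.029), and without VCD_High_PBDE it was 0.55 (0.372). The libraries without PBDE were level, and the 2 highest values were those of E2 with high PBDE. Across subsets, the E2 effect in Fib_0-like cells exceeded the mean of the other 3 by 1.21 ± 0.32 (adjusted p = 0.0097, with 17.2% of all genes called in this test), which was lost without VCD_Low_PBDE (0.0994) or VCD_High_PBDE (0.0803). Such calls were common over all genes in Fib_0-like cells, so nothing particular to Pparg is read from this difference. The same difference for Fib_2-like cells was -0.91 ± 0.34 (adjusted p = 0.050).

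Adding P4 to E2 changed none of the genes by a called amount. In edgeR 0 of 36 pairs were called and 10 had an unadjusted p below 0.05, while edgeR called 0.048%, 1.73%, 4.02% and 0.072% of all genes from Fib_0- to Fib_3-like cells. DESeq2 called 2 pairs, and its share of all genes is not given here. Plin2 came nearest, at -0.49 ± 0.13 in Fib_2-like (adjusted p = 0.0578) and -0.74 ± 0.21 in Fib_1-like cells (adjusted p = 0.108). In Fib_1-like cells Plin2 was lower with P4 at each PBDE level, at 379 against 607 CPM without PBDE, 496 against 830 CPM at low PBDE and 791 against 1332 CPM at high PBDE. Fabp4 was lower at each level too, with ratios of 0.478, 0.769 and 0.95 (log2 fold change -0.53 ± 0.31, adjusted p = 0.411). Cd36 was lower with P4 without PBDE and at low PBDE, and higher at high PBDE, where the Fib_1-like sum of VCD_High_PBDE_E2_P4 came from 116 cells.

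At low PBDE 0 of 36 pairs were called by edgeR, 7 had an unadjusted p below 0.05 and DESeq2 called 0, with 0%, 0.00838%, 0.0089% and 0.009% of all genes called by edgeR from Fib_0- to Fib_3-like cells. Fabp4 in Fib_2-like cells showed a log2 fold change of 0.72 ± 0.23 and Plin2 of 0.47 ± 0.13, both with an adjusted p of 1. Plin2 in Fib_1-like cells was 497 CPM in VCD_Low_PBDE against 270 CPM in VCD_Vehicle, and its log2 fold change at low PBDE was 0.57 ± 0.21.

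At high PBDE 2 of 36 pairs were called, Fabp4 in Fib_2-like cells (0.178% of all genes called there) and Cebpb in Fib_3-like cells (0.387% of all genes called), while in Fib_0- and Fib_1-like cells, with 0.184% and 0.067% of all genes called, 0 of 9 genes were. Fabp4 in Fib_2-like cells stood at 132 CPM in VCD_Vehicle, 248 CPM in VCD_E2 and 172 CPM in VCD_E2_P4, and at 300 CPM in VCD_High_PBDE, 950 CPM in VCD_High_PBDE_E2 and 638 CPM in VCD_High_PBDE_E2_P4. The groups did not overlap, and the low PBDE libraries, at 297, 352 and 225 CPM, overlapped with both. Fabp4 differed by 1.67 ± 0.23 on the log2 scale (adjusted p = 0.0258), which was lost without VCD_E2 (0.121), VCD_E2_P4 (0.0925), VCD_High_PBDE_E2 (0.0697) or VCD_High_PBDE_E2_P4 (0.081). All high PBDE libraries have ending 2 and all libraries without PBDE in the fit have ending 1, so PBDE and ending cannot be told apart in this pair of groups. With the ending as a term, the log2 fold change was 2.72 (adjusted p = 0.0335). That term is set by the low PBDE libraries, where hormone and ending change together. A different E2 response at low PBDE and an effect of the ending cannot be told apart, so this fit does not separate PBDE from ending. Within ending 2, VCD_High_PBDE_E2 stood at 950 against 352 CPM in VCD_Low_E2, and VCD_High_PBDE_E2_P4 at 638 against 225 CPM in VCD_Low_E2_P4. Fabp4 was not called with a lead of 0.6 between subset scores (0.135), with a mitochondrial limit of 10% (0.0528) or with E2 alone (0.0986).

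Cebpb in Fib_3-like cells stood at 1139, 786 and 835 CPM without PBDE and at 1516, 1481 and 1600 CPM at high PBDE, without overlap (log2 fold change 0.72 ± 0.13, adjusted p = 0.0435). The call held without VCD_High_PBDE (0.0188) and was lost without VCD_Vehicle (0.0688), VCD_E2 (0.206), VCD_E2_P4 (0.233), VCD_Low_PBDE (0.0633), VCD_Low_E2 (0.0505), VCD_Low_E2_P4 (0.063), VCD_High_PBDE_E2 (0.149) or VCD_High_PBDE_E2_P4 (0.24), with the file-name ending as a term (0.479), with a lead of 0 between subset scores (0.0906) and with E2 alone (0.394). Cd36 in Fib_2-like cells had the largest fold at high PBDE, 2.17 ± 0.42, and missed the threshold (adjusted p = 0.0777), which it passed without VCD_Low_PBDE (0.0245), with a mitochondrial limit of 10% (0.041) and with no filter on low counts. Its levels were 0.808, 12.8 and 8.03 CPM without PBDE and 10.5, 33.5 and 49.3 CPM at high PBDE.

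**Figure D5:**
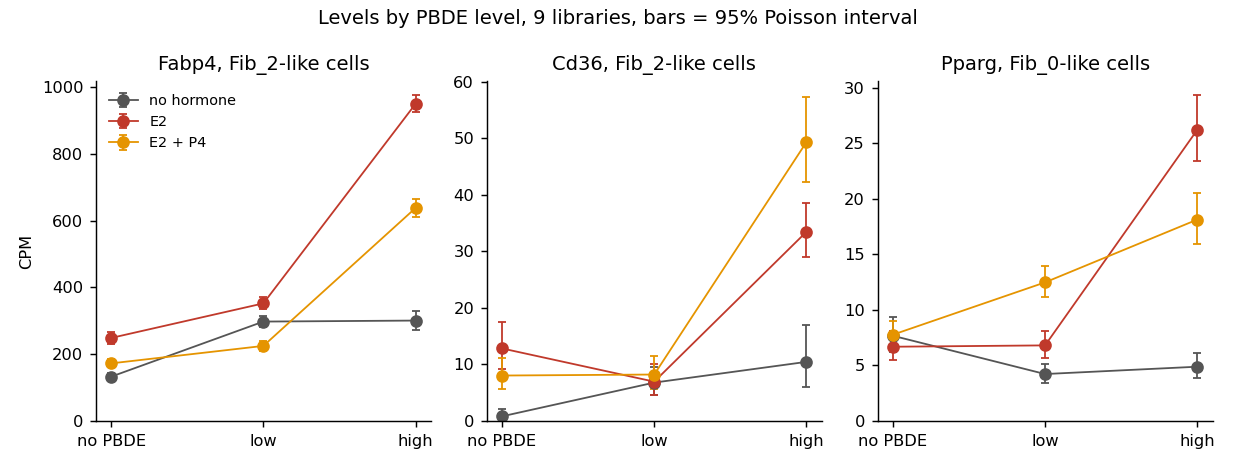
CPM (y axis from 0) of Fabp4 and Cd36 in Fib_2-like cells and Pparg in Fib_0-like cells against PBDE level (x axis), with 1 library per point, 95% Poisson intervals as bars and lines joining the libraries of a hormone state. The 3 high PBDE libraries lie above the libraries without PBDE for Fabp4 (300 to 950 against 132 to 248 CPM), and the high values of Pparg are the 2 libraries with E2 at high PBDE.

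Intact, VCD_Vehicle_NormEnv and VCD_E2_ICI are single libraries outside the fit, and their ratios have 95% Poisson intervals that cover counting error only. In Fib_1-like cells Fabp4 was 1692 CPM in Intact, 1.77 times VCD_Vehicle (1.73 to 1.82), and Cd36 was 52.3 CPM, 4.97 times VCD_Vehicle (4.13 to 6.00). VCD_Vehicle_NormEnv was close to VCD_Vehicle for Fabp4, at 0.847 times (0.825 to 0.869), but its Cd36 of 29.4 CPM was 2.79 times as high (2.30 to 3.40). These 2 vehicle libraries differ in possible PBDE exposure and in the file-name ending, and their difference was not tested.

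VCD_E2_ICI stood nearer to VCD_E2 than to VCD_Vehicle for some genes and at the level of VCD_Vehicle for others. In Fib_1-like cells Fabp4 was 4924 CPM, 1.04 times VCD_E2 (1.02 to 1.05) and 5.17 times VCD_Vehicle (5.06 to 5.27). Cd36 was 212 CPM, 1.18 times VCD_E2 (1.10 to 1.27), and Plin2 was 760 CPM, 1.25 times VCD_E2 (1.20 to 1.30). Fabp5 there was lower than in VCD_E2, at 42.1 CPM or 0.626 times (0.539 to 0.725). In Fib_2-like cells Fabp4, at 580 CPM, was 2.33 times VCD_E2 (2.14 to 2.54). Cebpb was higher with ICI than in VCD_E2 in all 4 subsets, by 1.30 times (1.26 to 1.35) in Fib_1-like to 1.64 times (1.57 to 1.72) in Fib_3-like cells. Its levels of 1061, 1013, 1203 and 1291 CPM from Fib_0- to Fib_3-like cells were 0.970, 0.992, 0.867 and 1.13 times those of VCD_Vehicle. Pparg in Fib_2-like cells stood at 23.5 CPM with ICI, against 15.8 CPM in VCD_E2 and 23.2 CPM in VCD_Vehicle, 1.49 times VCD_E2 (1.03 to 2.18). Plin2 in Fib_0-like cells, at 65.1 CPM, lay between VCD_E2 (78.2 CPM) and VCD_Vehicle (58.7 CPM). With 1 library and no replicate, an effect of ICI on these genes was not testable, and VCD_E2_ICI has file-name ending 2 and VCD_E2 ending 1.

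Around these genes, 4 lists of the pathway were read in the same fit. Of the fatty acid uptake list, which holds transporters, acyl-CoA synthetases and lipoprotein receptors, 4 of 17 tested genes were higher and 0 lower with E2 in Fib_0-like cells, 2 and 1 of 16 for Fib_1-like, 3 and 3 of 16 for Fib_2-like, and 1 and 1 of 17 for Fib_3-like cells. Over all genes, in the same order of subsets, 5.97%, 5.68%, 16% and 2.31% were called higher and 5%, 3.88%, 15.6% and 0.972% lower, 11%, 9.56%, 31.6% and 3.28% in either direction, so the 6 of 16 in Fib_2-like cells were near the background. Angptl4, an inhibitor of LPL, was higher in Fib_0-like (log2 fold change 1.28 ± 0.14, edgeR adjusted p = 0.00391) and Fib_2-like cells (1.06 ± 0.15, 0.00028). Lipa, the lysosomal acid lipase, was higher in Fib_0-like cells (0.68 ± 0.07, 0.0034), and in Fib_2-like cells Slc27a3, of the fatty acid transport protein family, was higher (1.48 ± 0.31, 0.00364) and Vldlr, a lipoprotein receptor, lower (-0.77 ± 0.16, 0.00325). The median log2 fold change of the list was 0.16, -0.03, 0.09 and 0.13 from Fib_0- to Fib_3-like cells.

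Of the triglyceride storage list, 2 of 20 tested genes were higher and 1 lower in Fib_0-like cells, 3 and 1 of 20 for Fib_1-like, 6 and 4 of 18 for Fib_2-like, and 1 and 0 of 20 for Fib_3-like cells, where 11%, 9.56%, 31.6% and 3.28% of all genes were called in either direction. Scd1, the desaturase of stored fatty acids, was higher in Fib_1-like (1.21 ± 0.18, edgeR adjusted p = 0.00474) and Fib_2-like cells (0.90 ± 0.18, 0.00247). Hilpda, an inhibitor of lipolysis on lipid droplets, was higher in Fib_2-like cells (1.30 ± 0.16, 0.000137), as was Lpin2, a phosphatidate phosphatase (0.79 ± 0.14, 0.00143). Lower in Fib_2-like cells were Plin4, a droplet coat protein (-1.93 ± 0.24, 0.000141), G0s2, an inhibitor of the lipase ATGL (-0.97 ± 0.17, 0.00134), and Pnpla2, which encodes that lipase (-0.88 ± 0.17, 0.00205). The list's median was -0.07, 0.12, 0.17 and 0.01 in the 4 subsets. With P4 added to E2, 1 of 20 genes was called in Fib_1-like cells, Plin4, with -1.51 ± 0.12 (adjusted p = 0.00173), where 1.73% of all genes were called, and 0 in the other subsets.

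Of the adipogenic regulators other than the genes above, 1 of 16 was higher and 1 lower with E2 in Fib_0-like cells, 0 and 1 of 16 for Fib_1-like, 0 and 6 of 15 for Fib_2-like, and 0 of 15 for Fib_3-like cells, again against 11%, 9.56%, 31.6% and 3.28% of all genes in either direction and, for Fib_2-like cells, 15.6% lower. Klf4, an early factor of adipogenesis, was lower in Fib_1-like (-0.81 ± 0.12, edgeR adjusted p = 0.00488) and Fib_2-like cells (-1.02 ± 0.12, 8.77e-05), and Klf9 (-1.09 ± 0.11, 2.88e-05) and Zfp467 (-1.38 ± 0.27, 0.00247), which both promote adipogenesis, were lower in Fib_2-like cells. The list's median was -0.12, -0.15, -0.29 and -0.03. Of the genes that restrain adipogenesis, 1 was higher and 2 lower of 11 for Fib_0-like, 1 and 1 of 8 for Fib_1-like, 2 and 2 of 8 for Fib_2-like, and 1 and 0 of 8 for Fib_3-like cells, read against the same shares of all genes, with medians of -0.17, -0.03, -0.05 and 0.13. Klf2, which represses Pparg, was lower in Fib_1-like (-1.10 ± 0.14, 0.00271) and Fib_2-like cells (-1.41 ± 0.14, 2.92e-05), and Wnt5a was higher in Fib_2-like cells (1.28 ± 0.12, 2.3e-05). With P4 added to E2, 2 of the 15 regulators (Klf9 and Ebf1) and 2 of the 8 restraining genes (Klf2 and Nr2f2) were lower in Fib_2-like cells, where 4.02% of all genes were called, and 0 in the other subsets. At low and high PBDE, 0 genes of the 4 lists were called in any subset, where at most 0.387% of all genes were called, so nothing is read from that count.

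The rule for naming pathway genes gave 47 pairs of gene, subset and comparison, and the 20 named above with values stayed called without each of the 9 libraries in turn. The other 27 were lost without at least 1 library, most often without VCD_Low_PBDE (19 pairs) or VCD_Vehicle (16 pairs).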

How the data were processed

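Droplet-based 3′ single-cell libraries (Chromium v3) of 12 groups of mice were analysed, 1 library each, grouped by the treatment label. What the authors deposited are raw UMI counts for each gene in each barcode, with no normalization, from Cell Ranger 3.1.0 and the mm10 build. These counts were used as deposited. A cell passed with 500 genes and 1000 UMIs or more and a mitochondrial share of at most 5%, and no doublets were called. A fibroblast took the subset with the highest marker score if it was at least 0.3 and led the next by 0.3, and it was otherwise unassigned, with 1102 assigned cells near that limit (a lead below 0.4). Endothelial cells needed 4 of 10 markers, macrophages 5 of 8, and both gates, like those of lymphocytes and luminal cells, left out cells with genes of another lineage.

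Counts were summed per library and subset and tested with edgeR 4.0.16 (glmQLFit, TMM, filterByExpr, Benjamini-Hochberg, threshold 0.05) in R 4.3.3, with hormone and PBDE as additive terms over 9 libraries. The difference of E2 effects between subsets was fitted over all sums of the 4 subsets with the library as a block. Since cells of 1 library are not replicates, no test was made over cells. On simulated data with 200 genes changed by a log2 fold of 1, the E2 test recovered 81.5%, 81%, 77.5% and 75% of them from Fib_0- to Fib_3-like cells (12503, 11934, 11236 and 11116 genes), and 6.32%, 8.47%, 9.36% and 6.83% of its calls were false. These false shares lay above the threshold of 0.05. The simulation had no PBDE effect, drew genes independently, took dispersions from the same data and changed fewer genes than were called in any subset. Its shares need not hold for the real libraries. Alternatives used DESeq2 1.42.0, plain library sizes, no filter, other gates and left-out libraries.

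Single-library values have exact Poisson and shares exact binomial intervals at 95%, which cover counting error only. The library totals allow levels under 1 CPM to be seen in large sums but not in small ones. The members and gene lists were chosen with earlier results of these data known. All 10 members are named. Of 4 pathway lists, the called genes with the largest fold were eligible, at most 4 per list, direction and comparison, and for each member the 3 genes of most similar pattern. Cebpd and Trac matched no row and were not analysed here, and Cavin1 was matched by its identifier under the older symbol Ptrf.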

Additional observations from a re-analysis of the deposited data

Results flagged for a closer look

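A test of the difference between subsets singled out 2 of 36 members and subsets, and 4 of the 36 had an unadjusted p below 0.05. Over all genes it called 17.2%, 2.03%, 27.3% and 4.56% from Fib_0- to Fib_3-like cells, against 1 of 9 members in Fib_0-like and 1 of 9 in Fib_1-like cells. The share of members in Fib_0-like cells was thus not above that of all genes. The E2 effect on Pparg in Fib_0-like cells exceeded its mean in the other 3 subsets by 1.213 on the log2 scale (edgeR adjusted p = 0.0097), with the highest levels in VCD_High_PBDE_E2 (26.2 CPM) and VCD_High_PBDE_E2_P4 (18.1 CPM). The E2 effect on Fabp5 in Fib_1-like cells exceeded its mean in the other 3 subsets by 0.8099 on the log2 scale (edgeR adjusted p = 0.00997). Both calls were lost without VCD_High_PBDE (0.0803 and 0.0524), that of Pparg also without VCD_Low_PBDE (0.0994) and that of Fabp5 without VCD_Vehicle (0.0705). With 1 library per group, no group could be examined for outlying replicates.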

How the results depend on the processing

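The number of called pairs of gene and subset moved with several settings, and the cause was not tested. For E2 it was 11, against 17 without a filter on low counts, 4 with E2 alone (without the E2 + P4 libraries) and 4 to 15 with 1 library left out, lowest without VCD_Vehicle and highest without VCD_High_PBDE_E2. For P4 it was 0, against 2 with DESeq2, 4 without the filter, 1 with a lead of 0.6 between subset scores and 0 to 1 with 1 library left out. For low PBDE it was 0, against 2 without the filter and 0 with any library left out. For high PBDE it was 2, against 4 with DESeq2, 6 without the filter, 1 with a lead of 0, 1 with a lead of 0.6, 1 with the file-name ending as a term, 0 with E2 alone and 0 to 5 with 1 library left out. For the difference between subsets it was 2, against 4 with DESeq2, 4 without the filter and 0 to 4 with 1 library left out. Apart from E2, the shares of all genes called under these other settings are not given here. Nothing is therefore read from those counts about the genes.

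The sign reversed for 2 named values, Fabp5 with P4 in Fib_2-like cells (0.1538 with a lead of 0.6) and Plin4 with E2 in Fib_1-like cells (0.2053 with E2 alone, against -0.56). Over all genes, E2 called 1372, 1141, 3555 and 365 genes from Fib_0- to Fib_3-like cells, and 54 to 1437, 21 to 1904, 1494 to 3920 and 36 to 834 over the other settings. No paired analysis was possible because each group had 1 library and the groups share no other replicate number. The library was a block only for the difference between subsets. Endothelial fits were not run, since 2 of the 9 libraries reached 10 endothelial cells. Adipoq was close to absent even in large sums, with 17 UMIs in all fibroblasts, and was not tested. Depth limits Cd36 in Fib_0-, Fib_2- and Fib_3-like cells.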
